A study of Mus musculus with 9 samples.

Results

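The genes described here are 10 imprinted genes with roles in growth: H19, Igf2, Igf2r, Grb10, Plagl1, Peg3, Mest, Ndn, Meg3 and Dlk1. They were chosen by symbol from the 54232 genes of the count table, and each of the 10 matched 1 Ensembl identifier. H19 was already known to differ strongly between the date labels of the libraries, so differences between labels are given as a description, with no test. The libraries came from primary mouse embryonic neural stem cells, labelled as brain subventricular zone, grown on laminin with FGF and EGF. Short hairpin RNAs, which knock down a transcript of matching sequence, were delivered, and RNA was taken 3 days after treatment. The groups were shNT, a non-targeting hairpin, and sh900 and sh902, which both target Phf2, which encodes a PHD-finger histone demethylase. Each group held 3 libraries, of which 1 had no date in its title, 1 had 30 August and 1 had 3 September. The sources used here do not give the strain, the number of animals, the vector or what the dates mark.

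Imprinted genes are transcribed mainly or only from the copy inherited from 1 parent. This follows from DNA methylation that is set in the egg or the sperm and kept after fertilisation, so the parental copies differ. Many paternally expressed genes favour fetal growth and many maternally expressed genes restrain it. In the brain some of them act on the dose of growth signals that stem and progenitor cells receive, and they are often expressed as a network in which Plagl1, a zinc finger transcription factor, takes part. A count table does not tell the parental copies apart, so the values below are total levels and say nothing of whether imprinting was kept.

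Each library held between 23212472 and 32392496 estimated counts, and values are given in CPM, a gene's counts scaled by the total of its library. Phf2 checked the labels: it stood at 49.5 to 57.4 CPM with shNT, at 13.5 to 26.8 with sh900 and at 17.0 to 29.2 with sh902, with no overlap. The 8 neural stem and progenitor markers summed to 6072 to 11920 CPM and all were detected. The 12 markers of fibroblasts and other mesenchyme summed to 84.8 to 252 CPM, most of it Prrx1 and Foxc1, with Col1a1 at no more than 2.16 and Lum at no more than 1.62 CPM. Choroid plexus markers summed to 11.1 to 26.2 CPM with Ttr at no more than 0.116, endothelial markers to 3.23 to 12.7, and microglial markers to 0.251 to 1.41 with Tyrobp and C1qa at 0. The markers that moved most were those of astrocytes, from 322 to 6126 CPM, and of cycling cells, from 156 to 2233 CPM, and the 3 control libraries alone spanned 340 to 6126 and 156 to 2233 CPM. Neuronal markers summed to 470 to 1957 CPM and oligodendrocyte-lineage markers to 341 to 1372. With the date label in the model, as described below, 4 of 6 tested neuronal, 5 of 7 oligodendrocyte-lineage and 2 of 6 astrocyte markers were called lower with the hairpins, and none of them higher. Of the 8 stem cell markers 2 were called higher and 2 lower, and of the 8 cycling-cell markers 0 were called. Their part in the values of the imprinted genes was not tested. In bulk RNA, fewer cells of a type and less RNA per cell cannot be told apart.

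The promoter sequences of the members on which the results turn are shown first, because the factors that keep imprints and the factor Plagl1 recognise short sequences that can be read in them. RefSeq on GRCm38.p6 gave 16 promoters for 9 of the 10 members, and the 250 bases before each start were searched on both strands. H19 was the member without a promoter in this set, so it was not searched. The motif TGCCGC, which Zfp57 binds when its CpG is methylated, was found in 4 of the 16 promoters, against 8.68% of 32851 promoters of all genes. These were 1 of Plagl1, 1 of Meg3 and 2 of Mest whose windows are shifted by only 3 bases, so they share their matches. The motif GGGGCCCC, the same on both strands, which Plagl1 binds, was found in 1 of the 16, that of Peg3, against 0.889% of all promoters. Capitals mark these motifs, and they did not overlap. The regions were chr17:12769707-12769956 on the minus strand for Igf2r, chr10:13090582-13090831 on the plus strand for Plagl1, chr6:30737800-30738049 on the plus strand for Mest and chr7:6730420-6730669 on the minus strand for Peg3. The Igf2r window held neither motif, and sequence outside the windows was not searched for any member.
Igf2r: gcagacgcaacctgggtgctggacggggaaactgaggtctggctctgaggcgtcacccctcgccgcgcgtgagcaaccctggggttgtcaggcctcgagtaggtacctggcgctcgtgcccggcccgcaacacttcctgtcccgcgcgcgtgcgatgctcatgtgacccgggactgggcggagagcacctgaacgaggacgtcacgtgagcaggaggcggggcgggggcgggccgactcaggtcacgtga
Plagl1: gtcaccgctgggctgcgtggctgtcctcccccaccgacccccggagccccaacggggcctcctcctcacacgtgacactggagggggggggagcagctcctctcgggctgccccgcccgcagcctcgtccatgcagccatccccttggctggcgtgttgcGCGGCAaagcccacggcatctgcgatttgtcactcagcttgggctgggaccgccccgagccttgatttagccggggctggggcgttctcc
Mest: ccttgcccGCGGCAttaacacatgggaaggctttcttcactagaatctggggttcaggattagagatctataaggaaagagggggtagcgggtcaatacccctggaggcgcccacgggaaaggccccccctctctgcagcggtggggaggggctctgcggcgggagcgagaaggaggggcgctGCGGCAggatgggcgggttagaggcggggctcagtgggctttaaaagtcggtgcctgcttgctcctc
Peg3: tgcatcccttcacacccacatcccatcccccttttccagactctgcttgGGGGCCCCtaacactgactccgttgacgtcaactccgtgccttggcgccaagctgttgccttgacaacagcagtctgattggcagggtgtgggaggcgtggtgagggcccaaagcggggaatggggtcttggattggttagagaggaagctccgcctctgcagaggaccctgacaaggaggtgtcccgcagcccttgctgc
These windows held 27 CpG dinucleotides at Igf2r, 19 at Plagl1, 14 at Mest and 8 at Peg3, where the median of all promoters was 6. The shares of all promoters given above were not matched for CpG content. A match describes letters in a window and is not evidence of binding in these cells.

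Levels differed widely among the 10 genes. Scaled to exon length, the mean over 9 libraries was 157 CPM per kb for Mest, a gene of a hydrolase-like protein and the most abundant of the 10. Igf2r followed at 15.6 and Peg3 at 13.5, then Ndn at 6.61, H19 at 4.82, Plagl1 at 1.93, Igf2 at 0.621 and Grb10 at 0.290 CPM per kb. Meg3 and Dlk1, neighbours on chromosome 12, were the lowest at 0.0366 and 0.0303 CPM per kb. Meg3 held 2 to 78 counts a library. Mest did not overlap with Igf2r (lowest Mest library 40.3, highest Igf2r library 32.0 CPM per kb), and Peg3 did not overlap with Ndn (8.91 and 8.77). Every other pair of neighbours in this order overlapped. Of the 10 genes, 9 passed the low-count filter of the tests, and Dlk1, with 0 to 11 counts a library, did not.

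**Figure D1:**
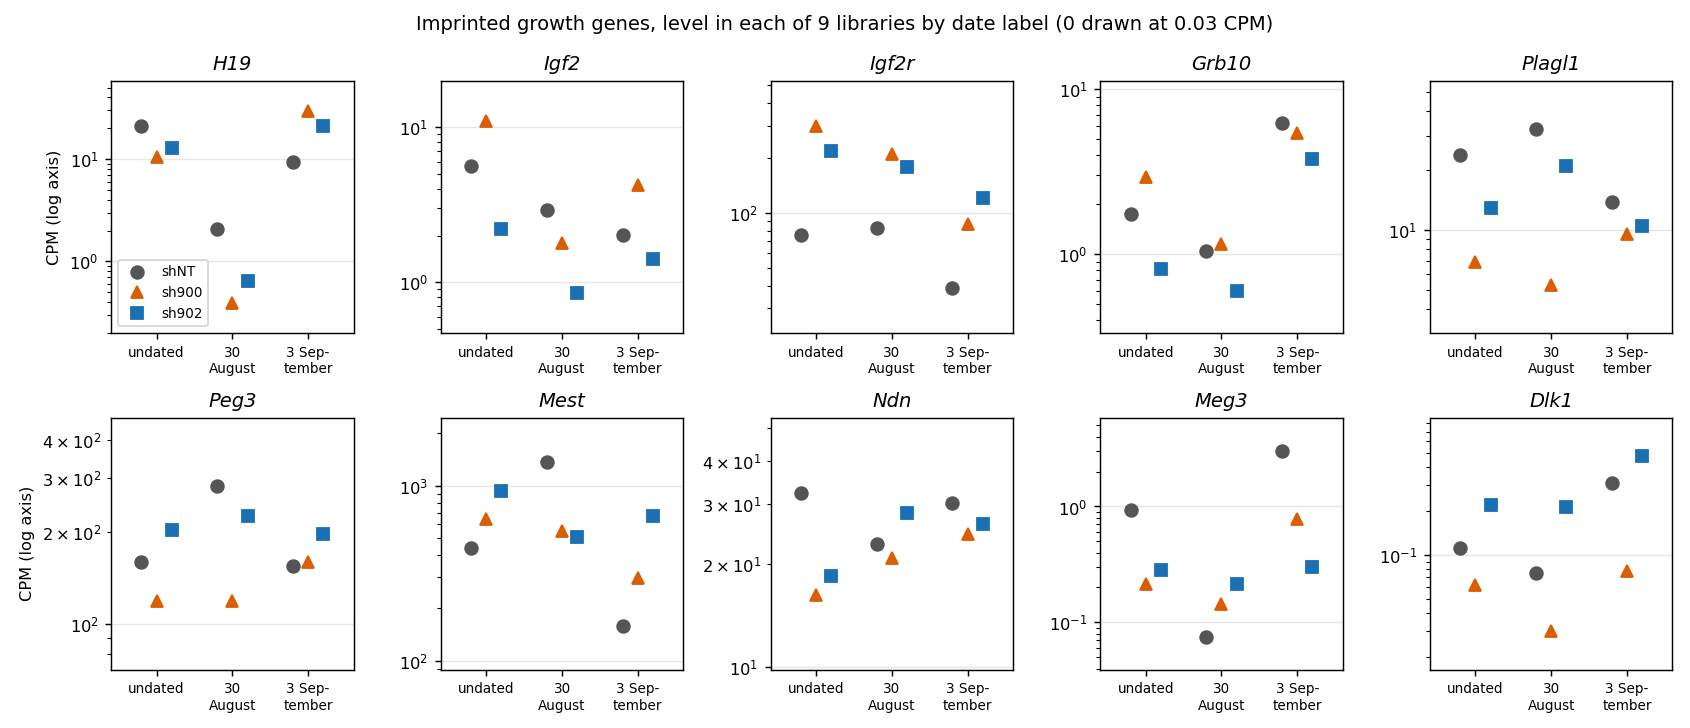
Level of each of the 10 imprinted genes in CPM (log axis) in 9 libraries, with shNT as circles, sh900 as triangles and sh902 as squares, by date label. Igf2r is the gene whose 6 hairpin libraries all lie above the 3 shNT libraries, and H19 is 0.395 to 2.07 CPM on 30 August against 9.28 to 29.2 on 3 September.

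Igf2r rose with both hairpins and was the only 1 of the 9 tested genes whose hairpin libraries all lay above the controls, which held for 4.15% of the 17602 genes tested. Another 2.62% lay wholly below, 6.77% in all. Igf2r (ENSMUSG00000023830, chr17:12682406-12769664, minus strand) encodes the receptor that carries insulin-like growth factor 2 to the lysosome and so removes it, and it also sorts lysosomal enzymes. In the shNT libraries it stood at 75.8 CPM without a date, 82.3 on 30 August and 39.0 on 3 September. With sh900 the same 3 labels gave 297.8, 210.8 and 86.5 CPM, and with sh902 218.5, 178.6 and 120.6 CPM. The groups did not overlap, although the lowest hairpin library (sh900, 3 September) was only just above the highest control (30 August). Against the control of the same label, Igf2r was 2.17 to 3.93 times as high, in 6 of 6 hairpin libraries.

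The test for Igf2r depended on whether the date label was in the model. In edgeR's quasi-likelihood fit without it, 0 of 9 members were called for the mean of both hairpins, nor was any gene (0.0% of 17602), although 2809 genes and 3 members had an unadjusted p under 0.05. Each hairpin alone against shNT, and sh902 against sh900, also gave 0 members and 0.0% of genes, with 2585, 2776 and 2532 genes at an unadjusted p under 0.05. DESeq2 on the same design called Igf2r (adjusted p = 0.02) and Plagl1 (adjusted p = 0.0288) for the mean, against 4.29% of genes. It called 2 members for sh900, 0 for sh902 and 1 for sh902 against sh900, against 4.47%, 4.82% and 5.88% of genes. With limma-voom 0 members were called in each of these 4 contrasts, against 0.0% of genes in 3 of them and 0.00568% for sh902 against sh900. With a replicate block for the date label, edgeR called Igf2r and Plagl1 for the mean, 2 of 9 members, against 11.7% of all genes (6.08% higher and 5.59% lower). The log2 fold change of Igf2r for the mean was 1.48 ± 0.20 (SE, edgeR adjusted p = 0.00702) with the block and 1.52 ± 0.45 (adjusted p = 0.221) without it. The size was therefore alike in both fits, and the standard error was smaller with the block. DESeq2 with the block called 2 members in each of the 4 contrasts, against 17.1% of genes for the mean, 14.7% for sh900, 16.1% for sh902 and 10.1% for sh902 against sh900.

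Igf2r was also called with each hairpin alone. The blocked log2 fold change was 1.56 ± 0.22 with sh900 (SE, edgeR adjusted p = 0.00968), where 2 of 9 members and 8.85% of genes were called, and 1.40 ± 0.22 with sh902 (adjusted p = 0.0114), where 1 of 9 members and 10.5% of genes were called. Leaving out 1 library at a time, the call for the mean held in 9 of 9 fits, with the largest adjusted p, 0.0479, without the undated shNT library. For sh900 alone, 3 libraries ended the call when left out: undated shNT gave an adjusted p of 0.0552, undated sh900 0.0531 and sh900 of 30 August 0.0738. For sh902 alone, the call ended when undated shNT (adjusted p = 0.0556), undated sh902 (0.0674) or sh902 of 3 September (0.0576) was dropped. With the 6 dated libraries alone the log2 fold change for the mean was 1.32 and the adjusted p was 0.109.

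**Figure D2:**
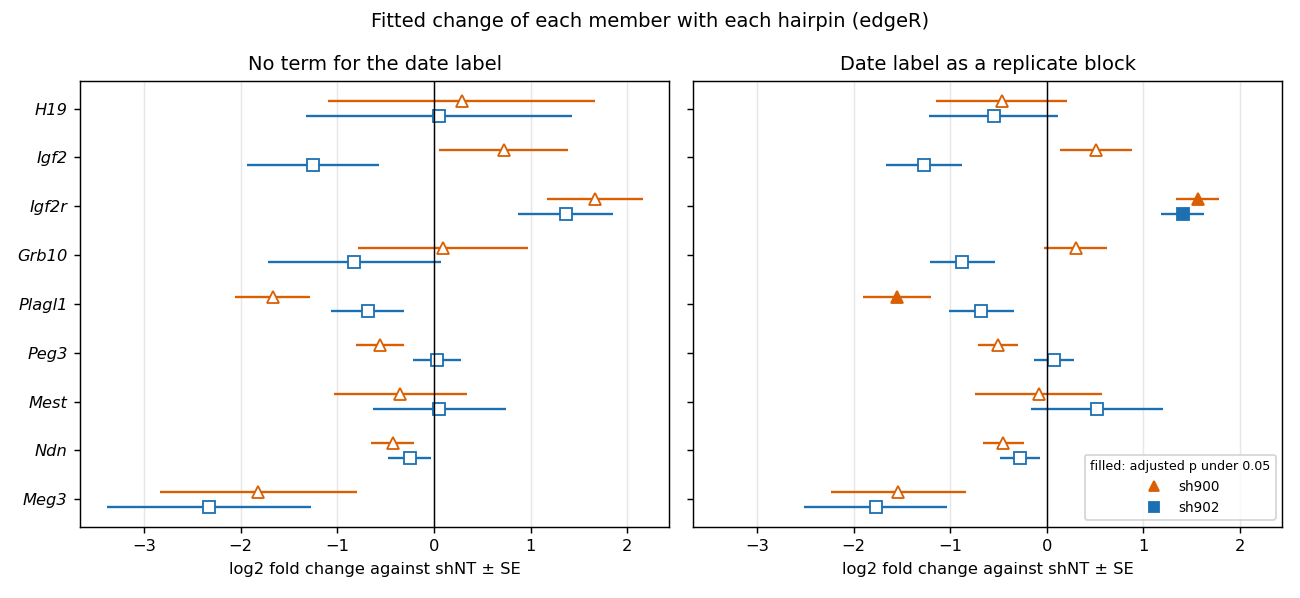
Fitted log2 fold change against shNT (x axis, with SE bars) of 9 members for sh900 (triangles) and sh902 (squares), without a date label term on the left and with it on the right, where filled symbols have an edgeR adjusted p under 0.05. With the block, Igf2r lies at 1.56 and 1.40 and Plagl1 at -1.55 and -0.68.

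Airn, the long RNA transcribed antisense through Igf2r, is the paternally expressed transcript that silences Igf2r on the same copy in many tissues, while neurons express Igf2r from both copies. It was low, from 0.543 to 2.01 CPM (14 to 65 counts), and lay above the control of its label in every hairpin library. Its blocked log2 fold change for the mean was 1.11 ± 0.31 (SE, edgeR adjusted p = 0.0525), and it did not pass the test. Airn shares 0 exon bases with Igf2r but lies across its introns, and no strand is stated for these libraries. Reads of Airn and of unspliced Igf2r RNA therefore cannot be told apart.

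Igf2 was lower with sh902 than with sh900, a call that rested on single libraries, and neither hairpin passed the test against the control. Igf2 (ENSMUSG00000048583, chr7:142650766-142666816, minus strand), the paternally expressed growth factor bound by the receptor above, was present at 20 to 353 counts a library. It stood at 5.62, 2.93 and 2.02 CPM with shNT, in the order undated, 30 August and 3 September. The values were 10.9, 1.79 and 4.21 CPM with sh900 and 2.22, 0.857 and 1.42 CPM with sh902. At every label sh902 was the lowest of the 3 libraries, and sh900 was above the control at 2 of 3 labels, so the groups overlapped when labels were pooled.

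In the blocked edgeR fit sh902 against sh900 gave Igf2 a log2 fold change of -1.78 ± 0.39 (SE, adjusted p = 0.0467), the only call among 9 members, against 4.22% of genes. Without the block it was -1.97 ± 0.69 (adjusted p = 0.233). The blocked call held in 1 of 9 fits that left out a library, that without the shNT library of 30 August (adjusted p = 0.0139), and the other 8 gave adjusted p from 0.0605 to 0.268. The largest came from dropping undated sh902, and dropping undated sh900 gave 0.226. Against shNT the blocked log2 fold changes were 0.51 ± 0.37 with sh900 (adjusted p = 0.42) and -1.27 ± 0.39 with sh902 (adjusted p = 0.0766), and neither passed. In the annotation 62.8% of the exon bases of Igf2 also belong to Gm49394 on the same strand, which held 0 to 5 counts a library, so reads of the 2 genes are uncertain.

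H19 moved with the date label more than any other member. H19 (ENSMUSG00000000031, chr7:142575529-142578143, minus strand) is a maternally expressed long noncoding RNA that shares enhancers with Igf2 and whose first exon holds the microRNA miR-675. The mature sequences of that microRNA, from RefSeq on GRCm38.p6, are shown with the seed (bases 2 to 8) in capitals, since they are the known short product of the transcript that varied most.
mmu-miR-675-5p: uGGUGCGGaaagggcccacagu
mmu-miR-675-3p: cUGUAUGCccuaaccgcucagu
They lie at chr7:142577112-142577133 and chr7:142577078-142577099. The separate row of the microRNA gene was at 0 in every library, in which short RNAs were not selected, so only the host transcript was measured.

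The H19 level was 21.2, 10.5 and 12.7 CPM in the undated shNT, sh900 and sh902 libraries. On 30 August it was 2.07, 0.395 and 0.642 CPM, which were 55, 11 and 15 counts. On 3 September it was 9.28, 29.2 and 20.9 CPM. The 30 August libraries were the 3 lowest of the 9, and the lowest library of the other labels was the control of 3 September. From 30 August to 3 September H19 was 4.46 times as high with shNT, 70.7 times with sh900 and 31.6 times with sh902, a mean log2 ratio of 4.43 ± 2.05 (SD, n = 3 groups). Of 14353 genes at a mean of at least 1 CPM, 0.613% had a mean log2 ratio of larger size, and the median gene had 0.06. This contrast was known when H19 was chosen, so it is a description.

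Within a label H19 lay on either side of the control. Both hairpins were below shNT in the undated libraries and on 30 August, at 0.494 and 0.599 and at 0.191 and 0.311 times its level. Both were above it on 3 September, at 3.15 and 2.25 times. The blocked edgeR log2 fold change for the mean was -0.51 ± 0.58 (SE, adjusted p = 0.617), and without the block 0.17 ± 1.20 (adjusted p = 0.956), with opposite signs and neither past the test. The astrocyte intermediate filament gene Gfap also differed between labels, at 7.47 to 27.4 CPM on 30 August and 357 to 1401 on 3 September. Within 3 September, Gfap was highest with shNT (1401, against 788.5 with sh900 and 356.5 with sh902), where H19 was lowest with shNT. In the undated libraries Gfap was 621.3 CPM with shNT, 57.05 with sh900 and 69.22 with sh902. The 6 astrocyte markers summed to 322 to 364 CPM on 30 August and 2332 to 6126 on 3 September. Their part in the H19 values was not tested.

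**Figure D3:**
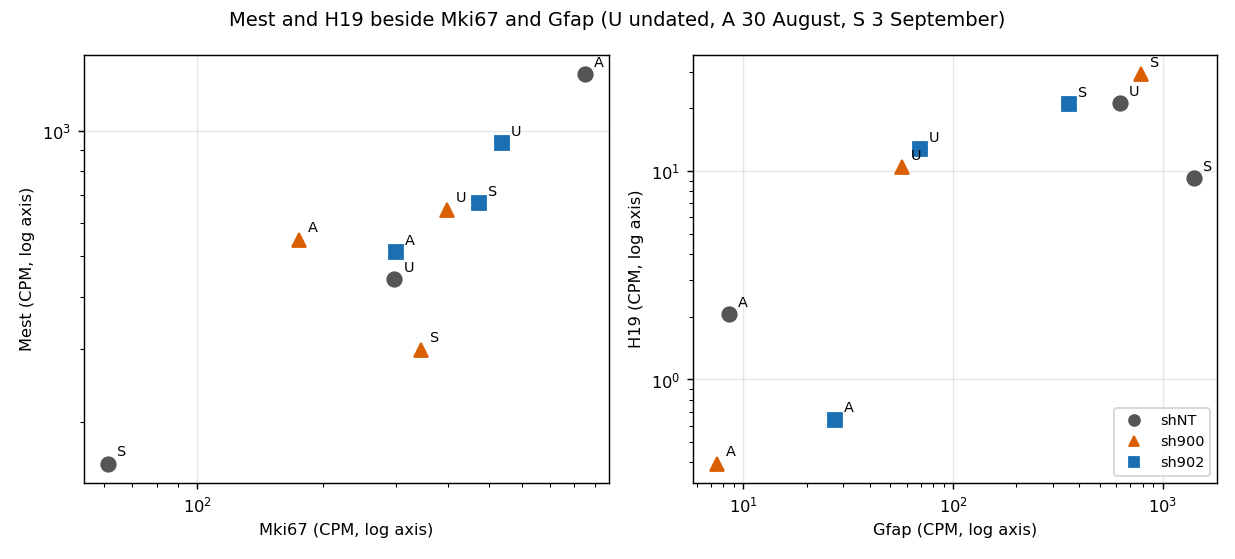
Mest against Mki67 (left) and H19 against Gfap (right) in CPM on log axes in 9 libraries, with symbols by hairpin and letters by date label (U undated, A 30 August, S 3 September). Mest is highest and lowest in the libraries where Mki67 is highest (848.7 CPM) and lowest (61.2 CPM), and the 3 libraries of 30 August are lowest in H19.

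Grb10 also stood apart between labels. Grb10 (ENSMUSG00000020176, chr11:11930508-12038683, minus strand) encodes an adaptor that binds insulin and IGF receptors and restrains their signal, and in neurons it is expressed from the paternal copy. It stood at 1.75, 2.93 and 0.813 CPM in the undated shNT, sh900 and sh902 libraries, at 1.05, 1.15 and 0.600 on 30 August, and at 6.21, 5.44 and 3.79 on 3 September. The 3 September libraries were the 3 highest of the 9, and sh902 was the lowest library at every label. The mean log2 ratio of 3 September to 30 August was 2.46 ± 0.21 (SD, n = 3 groups), and 3.45% of genes had one of larger size. For the mean of both hairpins the blocked edgeR log2 fold change was -0.29 ± 0.28 (SE, adjusted p = 0.542), and for sh902 against sh900 it was -1.17 ± 0.34 (adjusted p = 0.0898), and neither passed.

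Plagl1 fell in the mean of both hairpins and with sh900 in the blocked fit. Plagl1 (ENSMUSG00000019817, chr10:13060504-13131694, plus strand) encodes the zinc finger factor of the imprinted network, which can halt the cell cycle, and its promoter above holds 1 copy of the TGCCGC motif. With shNT the values were 23.9 CPM (undated), 32.4 (30 August) and 13.8 (3 September). With sh900 it stood at 6.88, 5.28 and 9.49 CPM, and with sh902 at 12.9, 21.0 and 10.4 CPM. The sh900 libraries were all below every control, while sh902 overlapped with the controls through the 30 August library, and 6 of 6 hairpin libraries were below the control of their label. The share of all genes whose sh900 libraries lie wholly apart from the controls was not counted.

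The blocked edgeR log2 fold change of Plagl1 for the mean of both hairpins was -1.12 ± 0.28 (SE, adjusted p = 0.0439), and without the block it was -1.18 ± 0.32 (adjusted p = 0.209). With sh900 alone the blocked value was -1.55 ± 0.35 (adjusted p = 0.0358), and with sh902 alone -0.68 ± 0.34 (adjusted p = 0.227). The difference of sh902 from sh900 was 0.87 ± 0.35 (adjusted p = 0.187) and did not pass, so the hairpins were not shown to differ. The call for the mean held in 1 of 9 fits that left out a library, that without the sh900 library of 3 September (adjusted p = 0.02), and the other 8 gave adjusted p from 0.0508 to 0.237, the largest without the undated shNT library. The sh900 call held in 4 of 9. Dropping a library ended it with an adjusted p of 0.16 for undated shNT, 0.187 for undated sh900, 0.129 for sh900 of 30 August, 0.0815 for undated sh902 and 0.0673 for sh902 of 3 September. Plagl1 was therefore close to the threshold, and its sign was negative in every such fit.

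Peg3, whose promoter holds the GGGGCCCC motif, was not called in the fits to all libraries. Peg3 (ENSMUSG00000002265, chr7:6703892-6730431, minus strand) is a paternally expressed zinc finger gene linked to growth and maternal care. It stood at 159, 119 and 203 CPM in the undated shNT, sh900 and sh902 libraries, at 283, 119 and 226 on 30 August, and at 155, 159 and 198 on 3 September. The hairpin libraries overlapped with the controls, sh902 was above sh900 at each of 3 labels, and the control of 30 August was the highest of the 9. The blocked edgeR log2 fold change was -0.50 ± 0.21 with sh900 (SE, adjusted p = 0.167), 0.08 ± 0.21 with sh902 (adjusted p = 0.848) and 0.58 ± 0.21 for sh902 against sh900 (adjusted p = 0.147). The last passed only without the shNT library of 30 August (adjusted p = 0.0275), among the fits that left out 1 library each. For the mean of both hairpins, that fit called 3637 genes where all libraries gave 2054.

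Mest was highest and lowest in the same control libraries as Mki67. Mest (ENSMUSG00000051855, chr6:30723547-30748465, plus strand), a paternally expressed gene also known as Peg1, holds 2 copies of the TGCCGC motif in the promoter above. It stood at 441, 647 and 934 CPM in the undated shNT, sh900 and sh902 libraries, at 1368, 548 and 512 on 30 August, and at 159, 298 and 670.2 on 3 September. The controls of 30 August and of 3 September were the highest and the lowest of the 9, so the hairpin libraries lay between them. The level of Mki67, which cycling cells express, was 848.7 CPM and 61.2 CPM in those 2 controls. Over the 9 libraries log2 Mest and log2 Mki67 had a Pearson r of 0.877, given as a description of libraries that share depth and date labels. The other members had r with Mki67 from -0.719 for Meg3 to 0.531 for Peg3.

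The fitted log2 fold change of Mest for the mean was 0.22 ± 0.59 with the block (SE, edgeR adjusted p = 0.856) and -0.15 ± 0.59 without it (adjusted p = 0.919). Without the shNT library of 30 August the blocked value was 1.17 (adjusted p = 0.0356), so the result for Mest turned on that control. That fit called 3637 genes for the mean, where the fit to all libraries called 2054, so the gain in calls was not particular to Mest. Against the control of the same label both hairpins were above in the undated libraries (1.47 and 2.12 times) and on 3 September (1.88 and 4.22 times), and both were below on 30 August (0.401 and 0.374 times). Of the exon bases of Mest, 23.1% also belong to Copg2 on the opposite strand, which held 95.2 to 137 CPM in all libraries, far less than Mest in most of them.

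Ndn varied least. Ndn (ENSMUSG00000033585, chr7:62346569-62350262, plus strand) encodes necdin, a paternally expressed protein of the MAGE family that restrains proliferation of neural precursors. It stood at 32.4, 16.2 and 18.5 CPM in the undated shNT, sh900 and sh902 libraries, at 22.9, 20.8 and 28.2 on 30 August, and at 30.3, 24.5 and 26.2 on 3 September. Hairpin libraries overlapped with controls, and 5 of 6 were below the control of their label. The blocked edgeR log2 fold change for the mean was -0.36 ± 0.18 (SE, adjusted p = 0.222), and without the shNT library of 30 August it was -0.58 (adjusted p = 0.0381). The fit without that library called 3637 genes, where all libraries gave 2054. The mean log2 ratio of 3 September to 30 August was 0.18 ± 0.26 (SD, n = 3 groups), and 74.0% of genes had one of larger size.

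Meg3 and Dlk1 are the maternally expressed noncoding RNA and the paternally expressed Notch-like ligand of 1 domain on chromosome 12. Meg3 (ENSMUSG00000021268, chr12:109541001-109571726, plus strand) stood at 0.930, 0.216 and 0.281 CPM in the undated shNT, sh900 and sh902 libraries. On 30 August it was at 0.0752, 0.144 and 0.214 CPM, which were 2, 4 and 5 counts, and on 3 September at 3.03, 0.772 and 0.302 CPM. The undated and 3 September controls were the 2 highest and the control of 30 August the lowest, so the groups overlapped. By label, the 30 August libraries were the lowest of the 9, though sh902 of 30 August (0.214 CPM) was hardly below undated sh900 (0.216 CPM). The blocked edgeR log2 fold change for the mean was -1.66 ± 0.59 (SE, adjusted p = 0.107), and -2.24 (adjusted p = 0.0137) without the shNT library of 30 August. Leaving that library out raised the genes called from 2054 to 3637.

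Dlk1 (ENSMUSG00000040856, chr12:109452823-109463336, plus strand) held 3, 2 and 7 counts in the undated shNT, sh900 and sh902 libraries, 2, 0 and 5 on 30 August and 8, 2 and 11 on 3 September. A count of 0 allows up to 3 counts, or 0.108 CPM, in the sh900 library of 30 August. The sh902 libraries were above the sh900 libraries at every label and without overlap, and the controls overlapped with both. How many genes have hairpin groups that lie apart in this way was not counted. Dlk1 did not pass the low-count filter, so these differences were not tested in the fits above.

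**Figure D4:**
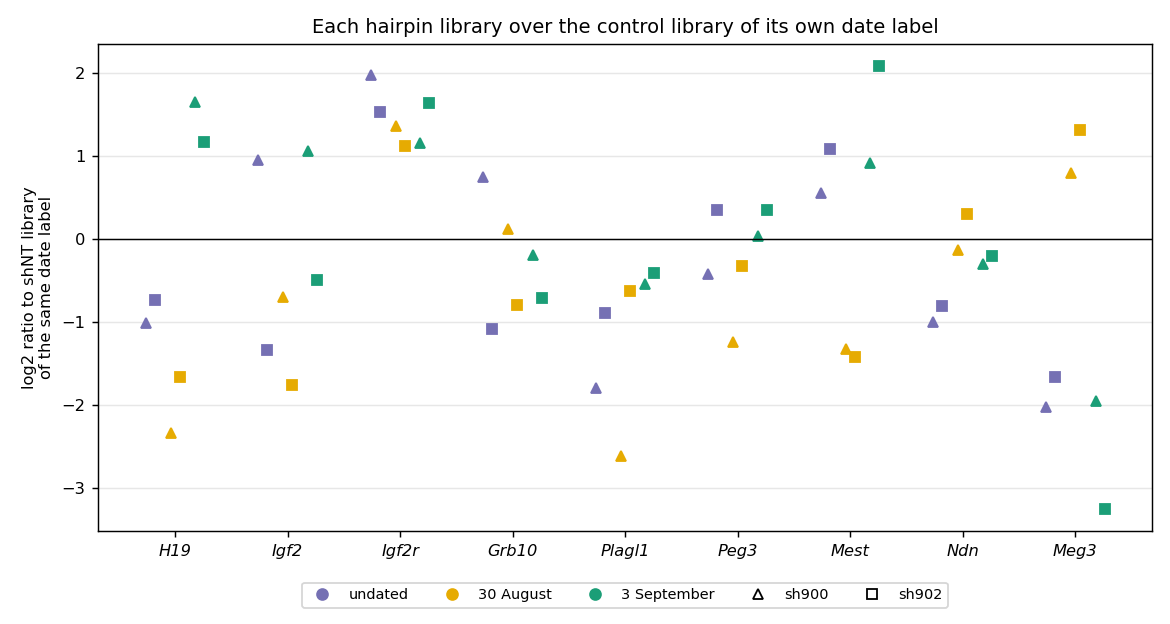
Log2 ratio (y axis) of each hairpin library to the shNT library of the same date label for 9 members, with colours for labels, triangles for sh900 and squares for sh902. Igf2r lies above 0 and Plagl1 below 0 in 6 of 6 libraries, while each of the other 7 genes has libraries on both sides of 0.

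Other genes in or near the members' imprinted domains were called about as often as genes in general. Of 38 such genes, 36 were in the table and 20 were tested, and in the blocked fit of the mean 0 were called higher and 2 lower, where 11.7% of all genes were called (6.08% higher and 5.59% lower), with a median log2 fold change of -0.12 where that of all genes was -0.02. The 9 members had a median of -0.36. Some genes of this list lie beside Kcnq1ot1, farther along chromosome 7 than H19 and Igf2, where no member lies. Cdkn1c (chr7:143458339-143461050), among these, encodes a maternally expressed inhibitor of cyclin-dependent kinases. It was at 18.6, 2.04 and 1.66 CPM in the undated shNT, sh900 and sh902 libraries. It was at 2.48, 0.682 and 1.20 CPM on 30 August and at 44.3, 6.95 and 4.78 CPM on 3 September. Each hairpin library was below the control of its label, while pooled groups overlapped through the low control of 30 August. Its log2 fold change was -2.67 ± 0.35 (SE, edgeR adjusted p = 0.00667) and the call held in 9 of 9 fits that left out a library. The other call, Phactr2, a phosphatase and actin regulator gene beside Plagl1, had -0.82 ± 0.19 (adjusted p = 0.0314) and held in 3 of 9. Like H19, Cdkn1c was higher on 3 September than on 30 August, with a mean log2 ratio of 3.15 ± 1.09 (SD, n = 3 groups). Ddc, in the Grb10 domain, had 2.96 ± 1.42 and its neighbour Cobl -1.21 ± 0.41.

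Of 31 imprinted genes of other domains, 27 were tested, of which 3 were called higher and 4 lower, where 6.08% and 5.59% of all genes were, with a median log2 fold change of 0.02. Inpp5f, a phosphoinositide phosphatase gene, stood at 79.7 to 103 CPM with shNT and at 128 to 182 CPM in the hairpin libraries, with no overlap, and had 0.76 ± 0.15 (SE, edgeR adjusted p = 0.0209). Nnat, a paternally expressed gene for a small membrane protein of the developing brain, stood at 1537, 452 and 1796 CPM with shNT in the order undated, 30 August and 3 September. It stood at 122, 75.2 and 688 CPM with sh900 and at 228, 244 and 589.6 with sh902, and had -2.15 ± 0.40 (adjusted p = 0.0236). Both calls held in 4 of 9 fits that left out a library. Ano1, a calcium-activated chloride channel gene, had 3.97 ± 0.77 (adjusted p = 0.0181) on 0 to 5 counts with shNT and 12 to 81 with the hairpins, and Ppp1r9a, a gene of a synaptic scaffold protein, had -0.49 ± 0.11 (adjusted p = 0.0249). They held in 5 and 3 of 9. Between labels Nnat had a mean log2 ratio of 2.15 ± 0.97, Htr2a -1.86 ± 0.92 and Zrsr1 0.98 ± 0.37 (SD, n = 3 groups).

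The IGF pathway, in which Igf2, Igf2r and Grb10 act, gave 3 of 20 tested genes higher and 0 lower, where 6.08% and 5.59% of all genes were called, with a median log2 fold change of 0.52 against -0.02 for all genes. Igf2bp2, a protein that binds Igf2 mRNA, stood at 13.8 to 25.3 CPM with shNT and at 29.6 to 68.6 in the hairpin libraries, without overlap. Its log2 fold change was 1.27 ± 0.12 (SE, edgeR adjusted p = 0.00377) and the call held in 9 of 9 fits that left out a library. Irs2, an adaptor of insulin and IGF receptors, had 0.75 ± 0.18 (adjusted p = 0.0361, held in 4 of 9) and the insulin receptor gene Insr 0.64 ± 0.16 (adjusted p = 0.0413, held in 2 of 9). Igf1r, the receptor that signals for Igf2, had 0.51 ± 0.17 (adjusted p = 0.0951) and did not pass. Between labels Igfbp3 had a mean log2 ratio of -2.91 ± 1.81, Igf2bp3 2.44 ± 0.40 and Igfbp5 2.36 ± 0.69 (SD, n = 3 groups).

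Of 24 factors known to set or keep imprints, 18 were tested, with 0 called higher and 4 lower, where 6.08% and 5.59% of all genes were, and a median log2 fold change of -0.21. Zfp57, the zinc finger protein that binds the methylated motif shown above, stood at 13.6, 10.5 and 15.4 CPM with shNT in the order undated, 30 August and 3 September. It stood at 4.29, 4.67 and 9.69 CPM with sh900 and at 4.75, 3.94 and 5.56 with sh902. The highest hairpin library was below the lowest control. Its log2 fold change was -1.30 ± 0.19 (SE, edgeR adjusted p = 0.00858), and the call was lost only without the undated shNT library (adjusted p = 0.0649) among fits that left out 1 library each. The DNA methyltransferase gene Dnmt3a had -0.59 ± 0.11 (adjusted p = 0.0157, held in 5 of 9), the methylcytosine dioxygenase gene Tet1 -0.65 ± 0.14 (adjusted p = 0.0258, held in 1 of 9) and Cbx5, for the heterochromatin protein HP1 alpha, -1.004 ± 0.23 (adjusted p = 0.0332, held in 3 of 9). Among the called genes named here from these lists, Cdkn1c and Igf2bp2 kept the call without any 1 library. Called genes of other domains that are not named were not checked in this way. For the others named, leaving out the undated shNT library ended it, with other libraries in all but Zfp57, and their highest adjusted p ran from 0.0644 for Dnmt3a to 0.197 for Insr. These lists were chosen with earlier results of these data known.

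**Figure D5:**
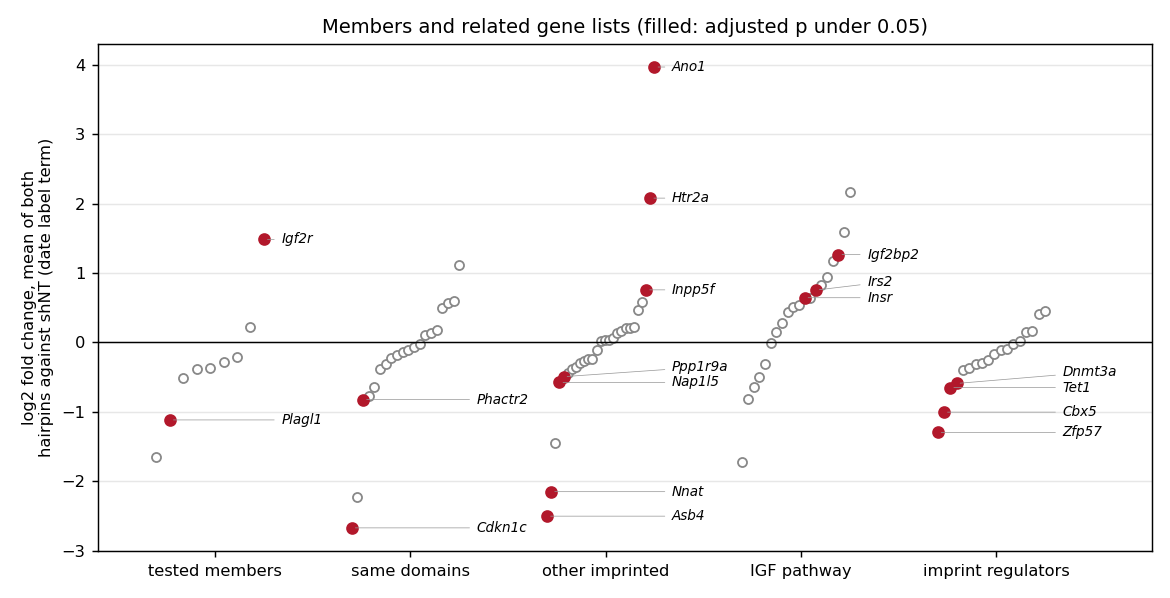
Blocked edgeR log2 fold change for the mean of both hairpins (y axis) of each tested gene in 5 lists, sorted within each list, with filled points at an adjusted p under 0.05. Igf2r at 1.48 and Plagl1 at -1.12 are the filled members, and Zfp57 at -1.30 is the lowest imprint regulator.

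Over the 9 libraries the genes whose log2 CPM followed H19 most closely among 12343 compared were Rnf43 (Pearson r = 0.989), Plin3 (0.981), Zfp689 (0.98), Lmo1 (0.975) and Dhdh (0.974). For Igf2 they were Pld1 (0.93), Jup (0.924), H2-D1 (0.914), Fstl1 (0.913) and Prr14 (0.911). For Meg3 they were Zfp638 (0.987), Kiz (0.984), Mkrn3 (0.983), Ttbk2 (0.982) and Zfp14 (0.976), and Mkrn3 is itself imprinted, in the domain of Ndn. These are the highest of many correlations over 9 libraries that share labels and depth, and are given as a description. H19 and Igf2, which share enhancers, had r = 0.503, and Igf2 and Igf2r had r = 0.071. For Dlk1 they included Tmem177 (0.958), Slc30a7 (0.945), Urgcp (0.941) and Dhdds (0.939), which on 0 to 11 counts of Dlk1 is no finding.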

How the data were processed

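The 9 RNA-seq libraries (3 groups of 3) were read from 1 table. It held estimated counts per gene deposited by the authors, all whole numbers, so no rounding was needed. The build GRCm38 and the tools STAR 2.5.0a, RSEM, Trimmomatic 0.36, cutadapt and FastQC are named per the submitters' processing notes. The sources used here do not give the annotation release, the counting settings or the strand. RSEM shares reads between overlapping genes by a model. Per the labels' protocols mRNA was fragmented and copied with random primers.

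Symbols and coordinates came from GENCODE M21 (GRCm38), which named 54165 of 54232 identifiers. All 10 members and all lists were chosen with earlier results of these data known. Named genes were all members, Phf2, in each list up to 4 called genes by adjusted p, up to 3 by the ratio between labels, and the 5 genes most correlated with H19, Igf2, Dlk1 and Meg3, of which 1 is not reported here. Because edgeR called no gene without the date label, lists were read from its fit with the label.

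Levels are CPM by library total. Ratios between single libraries used a prior count of 0.5 on the log2 scale. Tests used edgeR 4.0.16's quasi-likelihood F test (robust, TMM factors, default filter, 17602 genes, 99.9% of counts) in R 4.3.3, with Benjamini-Hochberg adjustment over all tested genes and a threshold of 0.05. SE is the log2 fold change over the square root of F. The fit without a date term was the main one, and a fit with a replicate block for the label was the second. Titles of different groups carry the same date. Deviations from group means correlated at 0.402 to 0.627 within 30 August, at 0.456 to 0.645 within 3 September, at 0.08 to 0.399 among undated libraries and at -0.661 to 0.302 between labels, so pairing was taken as given for dated libraries and as doubtful for the undated. The labels name no separate cultures or animals, so a p-value reflects only how these 9 libraries spread, which may be technical. Replicates were checked as separate libraries by a chi-square test of counts (at least 52.6 per degree of freedom).

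On simulated counts for 17602 genes, in the contrast of both hairpins with shNT, edgeR found 2% of 2-fold and 56% of 4-fold changes without the block, with 0 of 58 calls on unchanged genes. With it, edgeR found 48% and 91%, with 24 of 163 calls on unchanged genes, above the threshold's 5%. These counts were drawn from the blocked fit, with its date label effects and its spread, so a gain from the block was built in. Pairing of the undated libraries is doubtful in the data, so these shares do not show what the block gains there. Alternatives were DESeq2 1.42.0, limma-voom 3.58.1, RLE factors, library size alone, other filters, fits without any 1 library, without the undated libraries, or with only the groups compared. A limit from a count of 0 covers counting error alone, since reads copied by PCR are no independent molecules.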

Additional observations from a re-analysis of the deposited data

Results flagged for a closer look

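3 members lay on opposite sides of the control at different date labels with both hairpins, and this difference between labels was not tested. H19 had a mean log2 ratio of both hairpins to the control of the same label of 1.41 on 3 September, against -0.876 in the undated libraries and -1.996 on 30 August. Mest had mean log2 ratios of 0.817 in the undated libraries and 1.493 on 3 September, against -1.369 on 30 August. Peg3 had a mean log2 ratio of 0.192 on 3 September against -0.785 on 30 August, and its 2 undated hairpin libraries lay on either side of the control. Each ratio rests on 1 control library per label. Meg3, at a mean under 1 CPM, was not considered here.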

How the results depend on the processing

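Without the date label, 0 members were called under limma-voom, other scaling (RLE or library size), other low-count filters (none, or 1 CPM in 3 libraries), and with each library left out. With the replicate block the counts were 2 for the mean, 2 for sh900, 1 for sh902 and 1 for sh902 against sh900, and with DESeq2 2, 2, 0 and 1. In the paired fit, library size alone gave 1 for the mean and 0 for sh902 against sh900, DESeq2 gave 2 for sh902 and 2 for sh902 against sh900, and the 6 dated libraries alone gave 0 in each of the 4 contrasts. The compared groups alone, an alternative chosen after seeing the data, gave 1 for sh900, 0 for sh902 and 2 for sh902 against sh900. Leaving out 1 library gave 1 to 4 for the mean, 0 to 4 for sh900, 0 to 3 for sh902 and 0 to 2 for sh902 against sh900, each time with the most calls without the shNT library of 30 August. The genes called for the mean ran from 0 to 755 (DESeq2) over settings without the block, and from 1 (dated libraries) to 3637 (without the shNT library of 30 August) with it, where edgeR on all libraries called 2054. Over the settings with the block, all genes called ran from 4 to 2912 for sh900, where edgeR on all libraries called 1557. They ran from 0 to 3757 for sh902 (1850 on all libraries) and from 0 to 2595 for sh902 against sh900 (743). Counts of members thus moved while those of all genes moved widely too. Igf2r and Plagl1 kept their signs in every fit run.

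Signs that turned, as log2 fold changes for the mean without the block, were those of H19 (-0.51 with the replicate block, -0.43 with limma-voom, and -0.42 to 1.11 leaving out 1 library), Mest (0.22 with the replicate block, 0.32 with limma-voom, -0.62 to 1.03), Igf2 (-0.73 to 0.23), Peg3 (-0.42 to 0.12) and Grb10 (-0.98 to 0.72). For single hairpins, Igf2 with sh900 ran from -0.22 to 1.22 and Peg3 with sh902 from -0.13 to 0.41. With the block they were H19 (0.10 with limma-voom, -1.32 to 0.14), Igf2 (-0.67 to 0.053), Peg3 (-0.40 to 0.086), Mest (-0.13 with the 6 dated libraries, -0.37 to 1.17) and Peg3 with sh902 (-0.067 with the 6 dated libraries, -0.10 to 0.38). The cause was not tested. Low counts limit Meg3, and Dlk1 was tested only without the low-count filter.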
